A study of Drosophila melanogaster with 2 samples.

Results

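Chromatin bound by CG33017 was examined at 10 genes of Drosophila melanogaster that encode the Brahma remodeller and trithorax proteins, namely brm, mor, osa, Snr1, Bap60, trx, ash1, ash2, kis and Iswi. The genes were taken by name from the Ensembl annotation of BDGP6, where all 10 were found among 13945 protein-coding genes. The data are chromatin immunoprecipitation sequencing (ChIP-seq) of whole adult male flies from a transgenic line in which CG33017 carries GFP at its C-terminus, precipitated through the tag. The labels give 2 biological replicates of this 1 group, no age, and no second condition, and the driver of the transgene is not given in the sources used here. No library from flies without the tag was used. The description of the samples names an antibody to GFP, while their antibody field names CG33017. Whole flies mix all adult tissues, so a site bound in few cells and a site weakly bound in many cannot be told apart.

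Trithorax group proteins keep genes active through development and act against the Polycomb group. The Brahma complex is the SWI/SNF remodeller of the fly and uses the energy of ATP to slide or evict nucleosomes. Brm is its ATPase, Mor, Snr1 and Bap60 belong to its core, and Osa marks one of its forms. Trx and Ash1 are histone methyltransferases, Ash2 is a subunit shared by the methyltransferase complexes of the COMPASS family, and Kis and Iswi are ATPases of other remodeller families. The question here was where CG33017 peaks lay at the genes that encode these proteins.

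CG33017 peaks were found at 9 of the 10 genes, at a start site in some and deep in an intron or at a neighbouring gene in others. In the list that passed the authors' threshold on the irreproducible discovery rate (IDR), which holds 4867 peaks, 24 summits lay in the gene bodies or within 2 kb of them. Iswi alone had none. Of all protein-coding genes, 39.1% had an IDR summit in the same kind of window. Long genes meet this rule more often, so the genes were also read against their own length class, a division made after the values were seen. Of the 5 genes under 5 kb, 4 had a summit, against 34.4% of protein-coding genes of that length. Both genes of 5 to 15 kb had one, against 52.4%, and so did the 3 genes over 15 kb, against 55%. The equally long lists of highest signal from each replicate also gave 9 genes, 9.00 ± 0 (SD, n = 2), with 26 summits in replicate 1 and 27 in replicate 2. Density was 1.40 IDR summits per 10 kb of window at the 10 genes and 0.594 over the windows of all protein-coding genes.

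The 100 bp around the strongest IDR summit is shown for 7 genes, because these are the sites on which the results below turn. All are on the plus strand of the dm6 reference, read from the RefSeq copy of release 6. Capitals mark matches, on either strand, to the motifs described with the base composition. Bases in annotated UTRs were left out, which shortened the ash2 sequence to 81 bases and removed that of Bap60.
brm, chr3L:15982959-15983058: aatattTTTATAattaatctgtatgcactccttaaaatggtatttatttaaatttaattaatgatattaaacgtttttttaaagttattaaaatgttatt
mor, chr3R:15974377-15974476: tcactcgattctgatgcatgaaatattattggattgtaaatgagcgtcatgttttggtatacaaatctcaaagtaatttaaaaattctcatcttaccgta
osa, chr3R:17700546-17700645: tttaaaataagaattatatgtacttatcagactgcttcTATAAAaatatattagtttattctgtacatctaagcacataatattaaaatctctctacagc
trx, chr3R:14283828-14283927: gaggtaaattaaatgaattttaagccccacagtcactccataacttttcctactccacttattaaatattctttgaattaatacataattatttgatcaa
ash1, chr3L:19590560-19590659: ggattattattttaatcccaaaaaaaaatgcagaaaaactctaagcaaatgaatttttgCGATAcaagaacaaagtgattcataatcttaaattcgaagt
ash2, chr3R:24651336-24651416: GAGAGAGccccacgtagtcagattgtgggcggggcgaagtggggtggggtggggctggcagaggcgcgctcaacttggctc
kis, chr2L:223488-223587: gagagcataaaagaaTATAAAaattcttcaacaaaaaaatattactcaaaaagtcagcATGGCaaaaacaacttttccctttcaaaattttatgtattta

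At their own transcription start sites (TSSs) 6 of the 10 genes had an IDR summit within 500 bp, against 23.8% of all protein-coding genes. They were brm, mor, Snr1, Bap60, ash2 and kis, and replicate lists of the same length gave 6.50 ± 0.707 genes (SD, n = 2), trx being added in replicate 1. At brm, mor and Snr1 the summit lay between the gene and a neighbour transcribed in the opposite direction, and at Bap60 it lay inside such a neighbour. In all 4 the IDR summit was nearer to the neighbour's TSS. The replicate 1 summit at brm (114 bp upstream) and the replicate 2 summit at Snr1 (137 bp upstream) were instead nearer to the own TSS. When each IDR summit was given to its nearest TSS only, ash2 and kis were left. The share of all protein-coding genes under that rule is not given here, so the 23.8% does not apply to these 2 genes. Of the summits in the windows, 25% (6 of 24) lay at the gene's own TSS, and the replicate lists of that length gave 24.6% ± 3.32 (SD, n = 2). Over all pairs of a protein-coding gene and an IDR summit in its window the share was 41.7%. Median best rank at an own TSS was 2393 for the 6 genes and 2088.5 for the 3314 protein-coding genes with such a summit, whereas in the window it was 951 for the 9 genes and 1797 for 5459. A further 7 summits lay within 500 bp of the TSS of another gene only, and 11 had no TSS within that distance. In all, 13 of 24 (54.2%) lay at a TSS of some gene, where 62.3% of the IDR summits in windows of all protein-coding genes did. None of these shares and ranks was matched for gene length. The 3 genes over 15 kb, osa, trx and kis, held 6, 4 and 4 of the 24 summits.

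**Figure D1:**
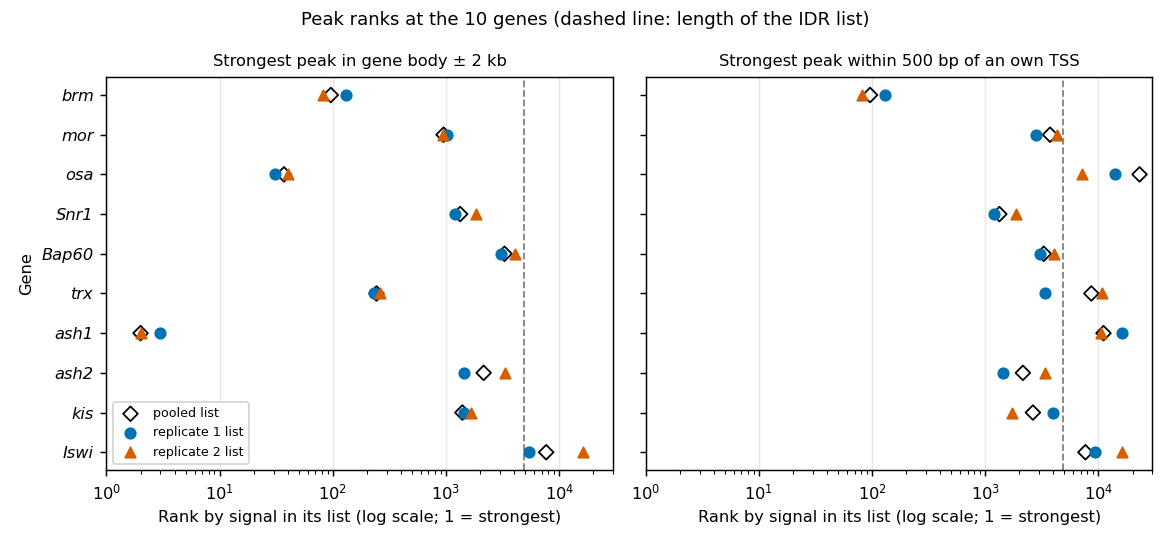
Rank by signal (log scale, 1 is strongest) of the strongest peak at each gene in the pooled list and in each replicate's list, each of 30000 peaks, within the gene body and 2 kb (left) and within 500 bp of an own TSS (right). The dashed line, at rank 4867, marks the length of the IDR list. A replicate point left of it need not be in that list, as for trx on the right in replicate 1 (rank 3375). In the pooled list ash1 moved from rank 2 on the left to 11084 on the right, osa from 37 to 23075, and brm stayed at 96.

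brm, the gene of the ATPase, carried the strongest own-promoter peak of the 10 genes. brm (FBgn0000212, 3L, 15970082 to 15982869, minus strand) shared it with Arl1, a gene of a small GTPase of the Golgi. The peak (3L, 15982850 to 15983163) had an intergenic summit 140 bp upstream of the nearest brm TSS and 126 bp upstream of the Arl1 TSS. Its signal, the authors' own value for a peak, was 1025 in the IDR list, where it ranked 96. It was 469.1 in replicate 1, with a rank of 131, and 557.0 in replicate 2, with a rank of 82. The mean of the replicate ranks was 106.5 ± 34.65 (SD, n = 2).

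The other 3 IDR summits of brm lay together in 1 intron and were far weaker. This intron of 7026 bp (3L, 15975097 to 15982122), intron 3 of 5 in the canonical transcript, also contains CG17028 and CG17029. The summit of rank 3687 lay 173 bp upstream of the CG17028 TSS, and that of rank 3887 lay 39 bp upstream of a CG17029 TSS. The third, of rank 2966, had no TSS within 500 bp. Their signals ran from 122.7 to 146.4. The summit near CG17028 ranked 3124 in replicate 1 and 6513 in replicate 2, so it was missed by the top 4867 of replicate 2.

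mor, the gene of the scaffold subunit Moira, had a strong peak upstream and a weak one at its TSS. mor (FBgn0002783, 3R, 15968134 to 15972913, minus strand) is transcribed away from Hel89B, which encodes a SNF2-type ATPase. The weak peak (3R, 15973003 to 15973406, signal 125.7, rank 3737) had an intergenic summit 292 bp upstream of mor and 93 bp upstream of Hel89B. It ranked 2826 in replicate 1 and 4292 in replicate 2. The stronger peak (3R, 15974296 to 15974509, signal 293.6, rank 951) lay 1514 bp upstream of mor, in an intron of Hel89B, and ranked 1023 in replicate 1 and 943 in replicate 2. The upstream peak therefore ranked above the promoter peak in each replicate.

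Snr1 and Bap60, the genes of the SNF5-like and BAF60-like subunits, had 1 IDR peak each, shared with a neighbour on the other strand. Snr1 (FBgn0011715, 3R, 5470926 to 5472754, plus strand) shared its peak (3R, 5470550 to 5470953, signal 238.9, rank 1333) with mRpL44, a mitochondrial ribosomal protein gene. The intergenic summit lay 174 bp upstream of Snr1 and 116 bp upstream of mRpL44, and the peak ranked 1193 in replicate 1 and 1857 in replicate 2. Bap60 (FBgn0025463, X, 13157445 to 13159508, minus strand) shared a weaker one (X, 13159530 to 13159933, signal 137.2, rank 3285) with CG12096. Its summit was 224 bp upstream of Bap60 and in a 5' UTR of CG12096. It lay 82 bp upstream of the nearest TSS of that gene and 128 bp downstream of another. It ranked 3055 in replicate 1 and 4064 in replicate 2. The replicate summits of this peak were 128 and 22 bp from the IDR summit, so its position is known less closely than that of Snr1, at 20 and 37 bp.

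osa held the most IDR summits of the 10 genes, and all 6 lay inside the gene and away from its TSS. osa (FBgn0261885, 3R, 17687818 to 17718350, minus strand) encodes the ARID-domain subunit of the BAP form of the complex. In intron 4 of 15 (3R, 17699704 to 17707770, 8067 bp) 5 summits spanned 3815 bp. The strongest (3R, 17700331 to 17700824, signal 1566, rank 37) lay 17754 bp downstream of the osa TSS and 145 bp upstream of lncRNA:CR46036, a non-coding gene on the other strand. It ranked 31 in replicate 1 and 40 in replicate 2, with signals of 844.8 and 734.6. The summit of rank 170 (signal 780.0) lay in an exon of lncRNA:CR46035, and that of rank 525 (signal 417.9) lay 213 bp upstream of the same gene. The remaining pair in this intron ranked 3111 and 3132.

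The sixth osa summit (3R, 17717087 to 17717490, signal 139.3, rank 3199) lay in intron 1, 1061 bp downstream of the TSS. At the osa TSS itself the pooled list held a peak of rank 23075, with a signal of 28.95 and a summit 190 bp downstream. The best peak there ranked 13893 in replicate 1, 408 bp upstream, and 7229 in replicate 2, 71 bp downstream. The start site of osa was thus weak in all 3 lists while intron 4 was among the strongest sites.

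trx had its strongest peak in an intron, with a weaker peak at its start site. trx (FBgn0003862, 3R, 14263358 to 14286903, minus strand) encodes the MLL-type methyltransferase after which the group is named. Its strongest peak (3R, 14283714 to 14284013, signal 660.1, rank 243) lay in intron 1 of the canonical transcript, 3025 bp downstream of the TSS. It ranked 233 in replicate 1 and 260 in replicate 2, with signals of 348.7 and 314.1. Another intronic peak (3R, 14277952 to 14278183, signal 287.5, rank 982) lay 8844 bp downstream, in intron 2, and ranked 1723 in replicate 1 and 682 in replicate 2. The weakest of its 4 IDR summits (signal 105.7, rank 4819), at 2291 bp, ranked 6416 in replicate 1 and 2817 in replicate 2.

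The fourth IDR peak near trx (3R, 14288699 to 14288927, signal 357.5, rank 675) was nearer to another gene. Its intergenic summit lay 1894 bp upstream of trx, just inside the 2 kb limit, and 274 bp upstream of the nearest TSS of red, transcribed in the other direction. At the trx TSS the pooled list held a peak of rank 8651, with a summit 256 bp downstream. The best peak there ranked 3375 in replicate 1 and 10650 in replicate 2, so the replicates fell on opposite sides of rank 4867.

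ash1 had the highest signal of any of the genes, from a peak beyond its 3' end. ash1 (FBgn0005386, 3L, 19590773 to 19598755, minus strand) encodes a methyltransferase of histone H3. The peak (3L, 19590435 to 19590809, signal 2981, rank 2) had an intergenic summit 163 bp past the end of ash1 and 8145 bp from its TSS. The same summit lay 86 bp upstream of the TSS of CG14100. It ranked 3 in replicate 1 and 2 in replicate 2, with signals of 1413 and 1584. At the ash1 TSS no IDR summit was found, and the pooled peak there ranked 11084, with a summit 207 bp upstream and a signal of 55.76. The peaks there ranked 16270 in replicate 1 and 10591 in replicate 2. The count for ash1 in the window therefore came from a site that is nearest to another gene.

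ash2 and kis each had an IDR summit nearest to a TSS of their own. ash2 (FBgn0000139, 3R, 24650125 to 24653376, plus strand) has 3 annotated TSSs, and its peak (3R, 24651184 to 24651587, signal 179.8, rank 2150) lay at the inner ones. The summit was 31 bp upstream of the TSS at 24651417 and in intron 3 of the canonical transcript, which starts at 24650125. It ranked 1442 in replicate 1 and 3339 in replicate 2. At the canonical TSS the pooled list held a weaker peak of rank 7279, with a summit 82 bp upstream and a signal of 77.7, near the TSS of another gene as well.

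kis (FBgn0266557, 2L, 210735 to 250823, minus strand) encodes ATPases of the CHD family that act with the trithorax group. It has TSSs at 250823 and 221962, and its 4 IDR summits lay in pairs near them. Near the upstream TSS 1 summit (2L, 250561 to 250964, signal 158.0, rank 2636) was 60 bp downstream, in the 5' UTR, and another (signal 113.3, rank 4365) was 1061 bp downstream in intron 1. The first ranked 4002 in replicate 1 and 1715 in replicate 2. Around the inner TSS, the strongest kis peak (2L, 223447 to 223631, signal 233.6, rank 1394) was 1576 bp upstream and 19 bp inside lncRNA:CR44222. The other (signal 168.1, rank 2379) was 1194 bp downstream. The inner TSS itself had no IDR summit.

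Iswi, the gene of the ATPase of the ISWI remodellers, was the only one of the 10 with no IDR summit in its window. Iswi (FBgn0011604, 2R, 12636671 to 12640628, plus strand) had a pooled peak 12 bp downstream of its TSS, of rank 7670 and signal 74.79. The strongest peak within 500 bp of that TSS ranked 9311 in replicate 1, with a signal of 34.93, and 16283 in replicate 2, with a signal of 23.25. Replicate 1 had a stronger peak in the window (rank 5449, signal 52.1), 708 bp upstream of Iswi and within 500 bp of another gene's TSS. The pooled list held one of rank 12109 there, and replicate 2 had only the peak at the TSS. Within 5 kb of the gene the IDR list held 3 summits. They ranked 831, at the TSSs of CG33792 and muskelin 4334 bp upstream of Iswi, 4573, at the TSS of spt4 3142 bp upstream, and 1855, with no TSS within 500 bp, 7624 bp downstream of the Iswi TSS.

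**Figure D2:**
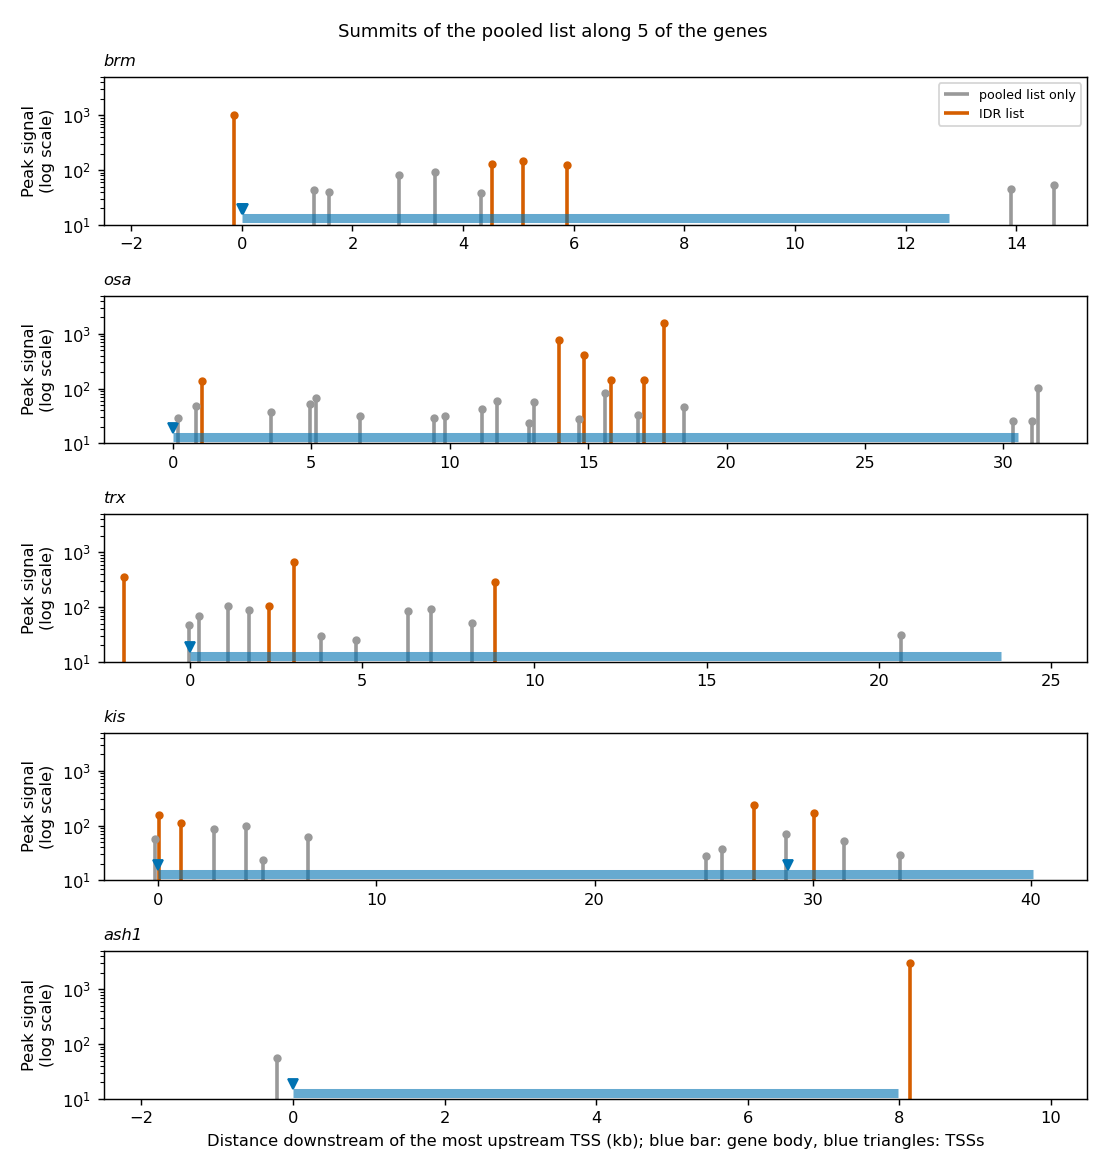
Signal (log scale) of every pooled summit at 5 genes against distance downstream of the most upstream TSS in kb, with IDR summits in orange, other pooled summits in grey, gene bodies as blue bars and TSSs as blue triangles. Orange stems stand at the TSS of brm (signal 1025), in the middle of osa (up to 1566), in the upstream part of trx (up to 660.1), near both TSSs of kis and past the end of ash1 (2981).

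Most of the weaker peaks lay in the long genes. The pooled list of 30000 peaks held 78 summits in the 10 windows, of which 25 were at osa, 14 each at trx and kis, 11 at brm and 1 at Bap60. Replicate 1 held 92 and replicate 2 held 86. Density in the pooled list was 4.57 summits per 10 kb of window, against 3.12 over the windows of all protein-coding genes. In replicate 1 it was 5.39 against 3.18, and in replicate 2 it was 5.03 against 3.1. The gap was thus smaller in proportion than in the IDR list. In the pooled list all 10 genes had a summit within 500 bp of an own TSS, as had 61.3% of all protein-coding genes. The peaks just outside the IDR list were at trx (rank 5032, signal 102.6), osa (rank 5142, signal 101.3) and kis (rank 5340, signal 98.19), and the last one inside it was the trx peak of rank 4819. Of the 54 pooled peaks outside the IDR list, 46 (85.2%) were overlapped by a peak of each replicate, against 60.5% of all such peaks. These shares were not matched for signal. Some of the 54, such as that of rank 17285 at brm, also overlapped an IDR peak, whose replicate match could then count again.

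Counted in ranks, the replicates lay closer at the strongest sites than at most weak ones. In proportion this did not hold throughout: the brm peak of rank 96 ranked 131 and 82, and that of rank 3887 ranked 4688 and 4286. All 24 IDR peaks were overlapped by a peak in each full replicate list, and 21 (87.5%) ranked within the first 4867 in both, where 75.0% of all IDR peaks were overlapped by both of these top lists. Both replicates entered the IDR list, so this is no independent check. The 3 exceptions were the peaks of rank 3687 at brm, 3111 at osa and 4819 at trx. By the strongest peak in the window, the order was ash1, osa, brm, trx, mor, Snr1, kis, ash2, Bap60 and Iswi. From ash1 to Snr1 the replicate ranks of neighbours in this order did not overlap. Those of Snr1 (1193 and 1857) enclosed those of kis (1433 and 1677). Those of ash2 (1442 and 3339) overlapped with kis and with Bap60 (3055 and 4064), so neighbours from Snr1 to Bap60 did not differ beyond the spread. Median distance from the IDR summit was 20 bp in replicate 1 and 13 bp in replicate 2. In 13 of the 24 peaks the deposited summit was the middle of the interval.

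**Figure D3:**
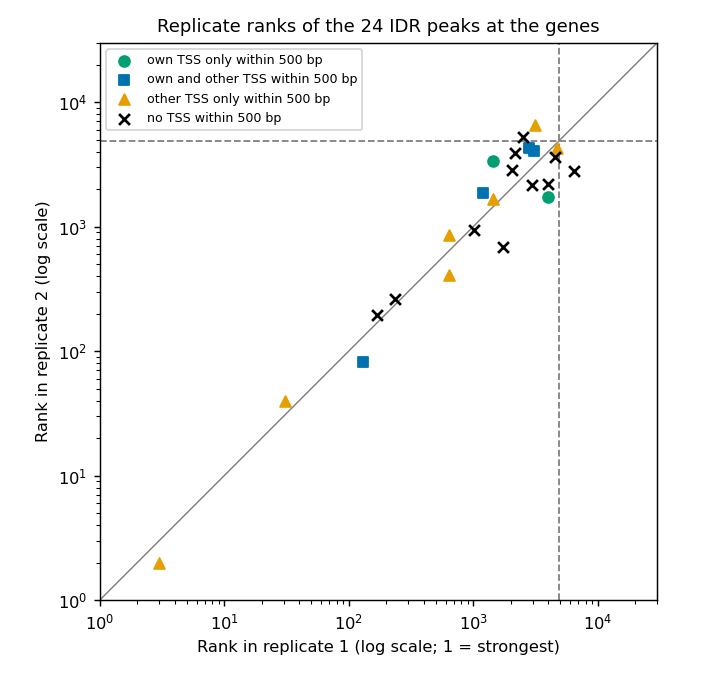
Rank of each of the 24 IDR peaks in replicate 1 (horizontal) and replicate 2 (vertical), both on log scales, with symbols for the TSSs within 500 bp and dashed lines at rank 4867. The strongest peaks, from ash1 (3 and 2) to trx (233 and 260), lie close to the diagonal, and 3 weak peaks lie beyond a dashed line.

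The 24 summits lay mostly in introns, and their GC content varied widely. An intron of some gene held 17 of the 24, and for 16 it was an intron of the Brahma or trithorax gene itself. Of the 4694 IDR summits in windows of all protein-coding genes, 49.3% lay in an intron, in a comparison not matched for gene length. Another 5 of the 24 were intergenic, against 31.7%, and 0 lay in coding sequence, where 0.618% of the 4694 did. Median GC over 100 bp at the summit was 31.5%, and the replicate lists gave 33.2% ± 1.06 (SD, n = 2). The median of all IDR summits was 35.0%. GC was below that median at 14 of the 24, and values ran from 14% at the brm and Arl1 summit to 59.0% at ash2. Among the 13 summits in the 2433 IDR peaks of highest signal the median was 26.0%, and it was 39.0% among the other 11. The same division of all IDR summits gave 31.0% and 39.0%.

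**Figure D4:**
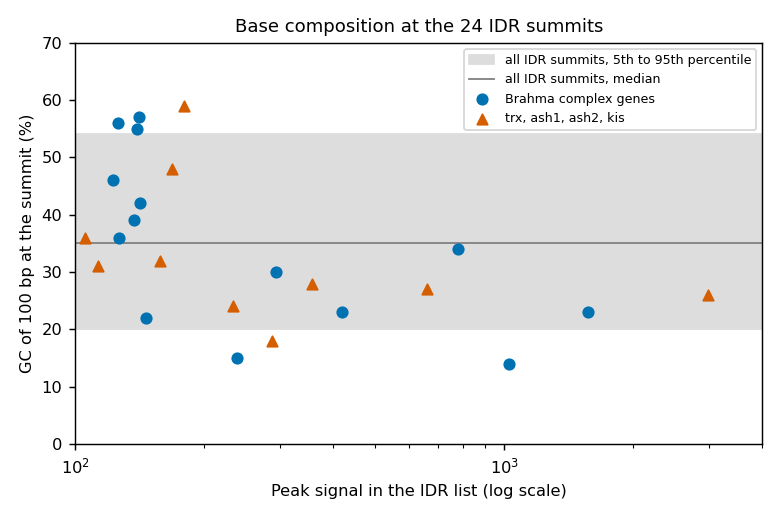
GC content of the 100 bp at each of the 24 IDR summits against signal (log scale), for Brahma complex genes (circles) and for trx, ash1, ash2 and kis (triangles). The grey band runs from 20.0 to 54.0%, the 5th to 95th percentile of all IDR summits, and the line is their median of 35.0%; the brm and Snr1 promoter summits lie below the band at 14 and 15%.

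Short consensus sequences were searched on both strands in the same 100 bp. The Pho motif GCCAT, bound by a Polycomb group protein, was in 9 of 24 windows and in 13.1% of all IDR windows. It was found at mor, osa, Bap60 and kis, and 4 of the 9 windows were at osa. The TATA box TATAAA was in 5 windows (21.6% of all), among them the strongest of brm, osa and kis, and the BEAF-32 motif CGATA in 3 (15.8%), at mor, Bap60 and ash1. The GAGA motif GAGAGAG was in 2 (2.61%), the ash2 summit and the intron 1 summit of osa. The DRE TATCGATA, which contains CGATA, and the E-box CACGTG were in 0 windows (1.42 and 0.842% of all). A match here is only a run of letters in the window.

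Among other genes of these complexes, 16 of 42 (38.1%) had an IDR summit within 500 bp of a TSS, where 23.8% of protein-coding genes had one. The top lists of the replicates gave 13 and 18. By group these were 5 of 8 further remodeller genes, 5 of 9 partners of ash1 and further trithorax genes, 5 of 12 COMPASS genes, 1 of 6 further Brahma complex genes, and 0 of 7 genes of ISWI complexes, of which 4 had a pooled summit there. The single Brahma complex gene was Act5C, an actin gene (rank 3986), and the COMPASS genes were trr, Lpt, Rbbp5, Mnn1 and Ncoa6. The remodeller genes were Chd1, Ino80, dom, XNP and Hel89B, and the trithorax genes fs(1)h, skd, Trl, nej and tna. The strongest were Ino80, a remodeller ATPase (3R, signal 375.2, rank 628), Chd1, another (2L, signal 310.0, rank 859), and Lpt, which encodes a partner of the methyltransferase Trr (2R, signal 231.8, rank 1412). Trl, the gene of the GAGA factor (3L, signal 215.8, rank 1599), and Ncoa6, a coactivator gene (2L, signal 181.2, rank 2114), followed. Summits of Ino80, Chd1, Lpt and Ncoa6 were shared with a neighbouring gene, and the Hel89B summit in this count is the one of mor. Ino80 ranked 606 in replicate 1 and 668 in replicate 2, whereas the Ncoa6 promoter ranked 1039 in replicate 2 and had no peak in the top 4867 of replicate 1.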

How the data were processed

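The values were peak lists on dm6 from 2 replicates. Per the text deposited with the samples, the authors called peaks on each replicate and on the pooled replicates against 1 shared control alignment, and derived the IDR list from all 3. No source used here names the aligner, the peak caller or the IDR threshold. The deposited signal of each peak was used to rank peaks within a list. The deposited −log10 q-value was at one ceiling for the 24 IDR peaks described and for the pooled peaks of rank 5032, 5142 and 5340. It was lower for weaker pooled peaks and was not used. All 4867 IDR peaks are in the pooled list. Read depth is unknown, so precision rests on the 2 replicates.

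Summits were placed on Ensembl release 115 (BDGP6), on 6 arms whose lengths contain all peaks. A window was the gene body and 2 kb each side, and a promoter was 500 bp either side of any annotated TSS. The authors give other values, such as the summit offset, per peak. Backgrounds were counted over 13945 protein-coding genes. With 1 group there was no test. Replicate spread comes from the first 4867 peaks of each replicate's list. Python 3.11.15, pandas 2.3.3 and scipy 1.17.1 were used, and counting was checked on planted summits. The members and lists were chosen with earlier results of these data known. All members were described with every IDR summit in their windows; of other genes, those with a TSS within 500 bp of such a summit and the 5 strongest of the complexes were named, and the genes near Iswi and the rest of the complex genes named were added after their values were seen. A summit sequence other than the 7 printed, and its motif match, are not reported here.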

Additional observations from a re-analysis of the deposited data

How the results depend on the processing

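Of 46 recomputed values, 32 stayed within 1.5 times a count or within the replicate SD of a share or median. Some of the 46 are the replicate values that set this SD, so the count is no independent check. No paired analysis was possible because there is 1 group. With either replicate's list alone, genes with a summit in the window stayed at 9, genes with one at an own TSS were 6 to 7, summits 26 to 27, the share at an own TSS 22.2 to 26.9%, median GC 32.5 to 34% and other complex genes 13 to 18. The 2433 IDR peaks of highest signal gave 3 genes at an own TSS, 13 summits, a median GC of 26.0% and 6 other complex genes, as a shorter list holds fewer. The whole pooled list gave 10 genes, 78 summits and 34 other genes. Without the 2 kb flanks 5 genes had a summit, since those of mor, Snr1, Bap60 and ash1 lie outside the gene bodies. The share at an own TSS was 20.8% with 250 bp or with canonical TSSs. Nearest TSS only gave 8.33%, 2 genes and 11 other complex genes, with no such value for all protein-coding genes. The count of 2 genes used IDR summits, and the replicate summits at brm and Snr1 differed in their nearest TSS. Median GC over 100 bp each side was 36%. The deposited lists hold no read depth, so weak peaks cannot be told from missed ones.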
